A study of Homo sapiens with 14 samples.

Results

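The splicing of 8 genes of the Ski complex and the RNA exosome was examined in HEK293T, a cell line from human embryonic kidney, with wild-type SF3B1 (WT) or SF3B1 K700E (MT). The genes are SKIV2L, TTC37, WDR61, EXOSC3, EXOSC9, EXOSC10, DIS3 and DIS3L. All splice events of any type that carried one of these gene symbols and a mean of at least 10 junction reads over both genotypes were taken, which gave 103 of the 114349 events in the table, out of 106 events listed for these genes.

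RNA-Seq of HEK293T cells comprised 3 WT and 3 MT libraries, and the same series holds DRIP-seq of Nalm-6 cells, a human B cell leukemia line with SF3B1 K700K (WT) or K700E (MT), in 2 untreated and 2 RNH1-treated libraries of each genotype. In both lines the genotypes are isogenic, so that all groups share the background of their parent line, and no other treatment is given for HEK293T. Neither the number of clones nor the number of separate cultures is given in the sources used here, so p-values measure only the spread between these libraries, which may be technical. For each event the splice table holds 6 MT values in a list, and separate columns for 3 of them, those at positions 1, 2 and 6. These columns, called MT 1, MT 2 and MT 3 in the order of the table, were taken as the MT libraries, although their match to the 3 MT samples is not settled.

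The Ski complex works in the cytoplasm. Its helicase SKIV2L pulls RNA through the complex, TTC37 is the scaffold, WDR61 is a small propeller-shaped subunit, and together they feed RNA into the exosome. The exosome degrades RNA from its 3′ end: EXOSC3 belongs to the cap that binds RNA, EXOSC9 to the barrel below it, and EXOSC10, DIS3 and DIS3L are the nucleases, with DIS3L found in the cytoplasm. SF3B1 is the component of the U2 snRNP that holds the branch point during recognition of the 3′ splice site, and its K700E mutant is known for the use of cryptic 3′ splice sites upstream of the canonical ones.

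Splicing was measured as the inclusion level, the fraction of transcripts that carry the longer form of an event, or the upstream exon of a pair of mutually exclusive exons. The study picked SKIV2L for follow-up from splicing data that included this cell line, so its event here is not independent evidence for that choice. The 2 events with all MT levels above all WT levels and a difference in the means above 0.1 were an alternative 3′ splice site of SKIV2L and a cassette exon of EXOSC9. The sequences of their 3′ splice sites are shown first, on GRCh38 and on the strand of the gene, because the forms of each event differ in the use of these sites. Intron bases and exon bases are in lower case, and the AG at the edge of the intron is in capitals.
SKIV2L upstream 3′ site (chr6:31968599-31968628, plus strand): gtagactgaccgcccccatctcAGcccttg
SKIV2L downstream 3′ site (chr6:31968662-31968691, plus strand): aggctgacgggtggctctctgcAGtacctg
EXOSC9 exon, 3′ site (chr4:121816120-121816149, plus strand): taatttttctattatttttaatAGagctgg

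SKIV2L exon 25 of 28 (MANE transcript) could start at either of the 2 SKIV2L sites. The upstream site adds 63 bp, chr6:31968623-31968685, and the inclusion level is the share of the form with these bases. The level was 0.079, 0.214 and 0.160 in the WT libraries and 0.295, 0.478 and 0.524 in the MT libraries. All MT libraries lay above all WT libraries, but the gap between the highest WT and the lowest MT library was smaller than the spread within MT. The mean was 0.151 ± 0.068 in WT and 0.432 ± 0.121 in MT (SD, n = 3 each), a difference of 0.281 (SE 0.080) that was not significant when adjusted over all 83581 events tested (limma with Benjamini-Hochberg adjustment, adjusted p = 0.654). For this event, which the study had picked from data that included this cell line, the unadjusted p was 0.00336 (limma). For a single event, an exact permutation test of 3 against 3 libraries cannot give a two-sided p under 0.1. Among 5351 alternative 3′ splice site events tested, 24, this event included, had a positive difference at least as large. A negative difference at least as large in size was found in 21.

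The reads behind this event were few. The mean per library of reads over the upstream form was 8.0 in WT and 19.2 in MT, and over the downstream form 31.0 in WT and 13.5 in MT, where the MT means are those of the authors over all 6 listed values. The downstream form had fewer reads in MT than in WT and the upstream form more. Reads were fewer in MT in 20 of the 21 SKIV2L events, with a median ratio of MT over WT of 0.674, beside 1.016 over all events. Whether the lower count of the downstream form goes beyond this was not tested. Leaving out single libraries moved the difference between 0.236 (without MT 3) and 0.350 (without MT 1).

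The 63 bp are 21 codons long and so keep the reading frame, but read in the frame of the MANE transcript they hold a stop codon after the first 8 codons, at chr6:31968647-31968649. Of 27 annotated SKIV2L transcripts, 3 use the upstream site, and these are classed as nonsense-mediated decay or retained intron and none as protein coding, whereas the 17 with the downstream site include protein-coding ones. The first 30 bases of the segment are shown with the stop codon in capitals.
SKIV2L start of the 63-bp segment (chr6:31968623-31968652, plus strand): cccttgtcctcagtgcacccctgcTAAggg

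The forward primers that the study designed for its qPCR each span one of the 2 junctions, with the bases of the upstream exon in lower case and those after the junction in capitals. Each was found across the junction of one form and not in the other form, which links the event in the table to the isoforms named by the primers. With reverse transcriptase qPCR, the study reported the altered splicing of SKIV2L in its isogenic cell lines and in human CLL cells with SF3B1 mutations. It also described the SKIV2L variant as conserved in mice with mutant Sf3b1. Those qPCR and mouse data were not examined here.
SKIV2L Mut Isoform Fw: tgcccagCCCTTGTCCTCA
SKIV2L WT Isoform Fw: tcctgcccagTACCTGAAG

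In the 20 bases before its AG, the upstream SKIV2L site had 13 pyrimidines and 4 adenines, and the downstream site 11 pyrimidines and 1 adenine. Over all 5351 alternative 3′ splice site events tested, the medians were 14 pyrimidines and 3 adenines at both the upstream and the downstream site. The distance of 63 bp between the sites compares with a median of 47 bp. The values are a description of these windows and were not tested.

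The EXOSC9 event is a 51-bp cassette exon between exons 10 and 11 of the MANE transcript (chr4:121816144-121816194), which 1 annotated protein-coding transcript includes and 3 transcripts skip. Its level was 0.094, 0.105 and 0.123 in the WT libraries and 0.217, 0.233 and 0.197 in the MT libraries. The libraries of each genotype lay close together and the groups were apart. The mean was 0.107 ± 0.015 in WT against 0.216 ± 0.018 in MT (SD, n = 3 each), a difference of 0.108 (SE 0.013), with an adjusted p of 0.843 (limma, Benjamini-Hochberg). Read in the frame of the MANE transcript, the 51 bp hold 0 stop codons. Without MT 2 the difference was 0.100, and with the other libraries left out in turn it lay between 0.102 and 0.118.

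The same intron of EXOSC9 has a retention event of 2321 bp, described here after its values were seen, because its form without the intron is the form that skips the 51-bp exon. The retention level in WT was 0.051, 0.086 and 0.149, against 0.072, 0.149 and 0.098 in MT. These ranges overlapped. The authors' mean reads over the retained form were 20.3 in WT against 20 in MT, and those over the 51-bp exon 19 in WT against 36.5 in MT.

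**Figure D1:**
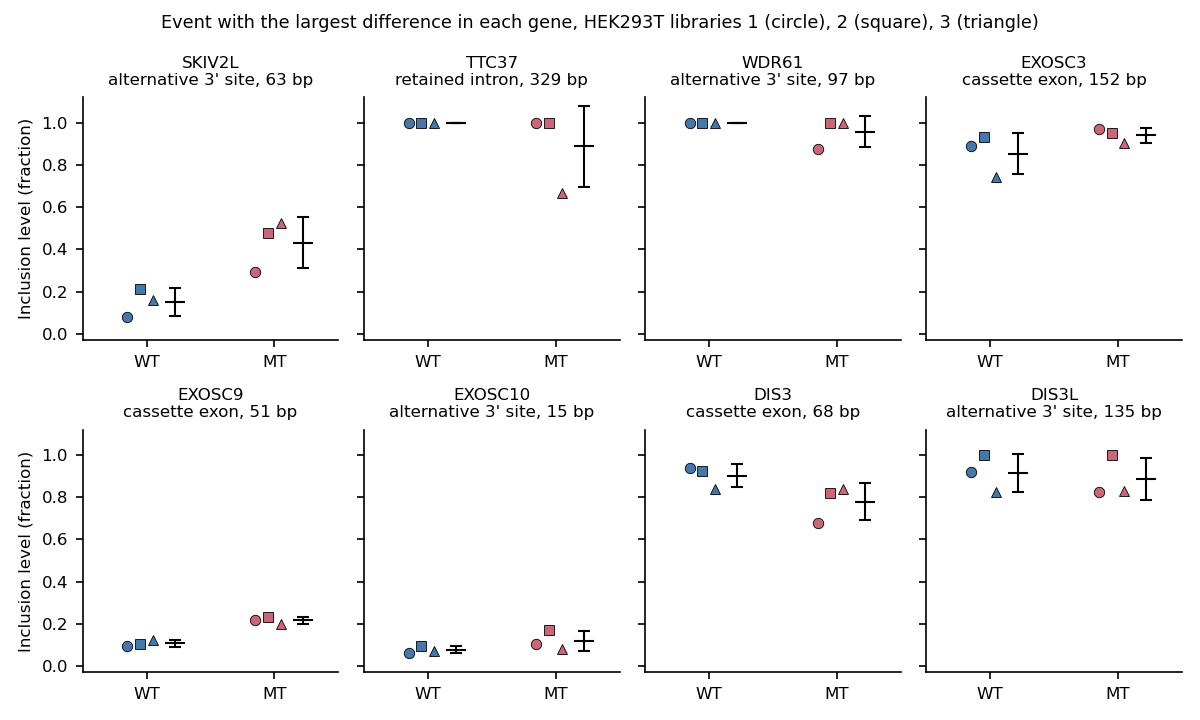
Inclusion level (fraction, y axis) in each WT and MT library of HEK293T for the event with the largest difference in each of the 8 genes; symbols mark libraries 1 to 3, the horizontal mark is the mean and the bar its SD (n = 3). WT and MT libraries are apart for SKIV2L (0.079 to 0.214 against 0.295 to 0.524) and EXOSC9 (0.094 to 0.123 against 0.197 to 0.233) and overlap or touch in the other 6 genes.

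Of the 103 events, 83 could be tested. The other 20, all cassette exons, had a level of 1 in all 6 libraries and so no spread. No event of the 8 genes was called by limma (adjusted p under 0.05 and a difference above 0.1), where 0.0311% of all events tested were called. At an unadjusted p under 0.05 by limma there were 4 events, which is 4.82% of 83 and near the 4.47% of all events. The count of calls was also 0 under all 12 alternatives run. The 2 events with WT and MT apart by more than 0.1, both higher in MT, are 2.41% of the 83, beside 0.748% of all events in that direction. For the opposite direction the 8 genes had 0 such events and all events 0.977%. Among alternative 3′ splice sites alone 1.91% and among cassette exons alone 0.528% of the events tested were apart by more than 0.1 and higher in MT. At any size of difference, the same 2 events of the 8 genes were apart, 2.41% of the 83, beside 5.46% of all events tested.

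Most of the splicing of these genes differed little between the genotypes in size. The median absolute difference was 0.010 over the 83 events and 0.014 over all events tested, and the median signed difference 0.000 and −0.002. By sign, 41 events were higher and 40 lower in MT. Differences above 0.1 in size were found in 6 events, 7.23% of 83 beside 5.80% of all events. Most cassette exons were near full inclusion, as 54 of 68 had a level of at least 0.95 in every library. The mean reads of the tested events ranged from 12 to 545.8, with a median of 147.1 against 82.4 over all events, and the SKIV2L events had the lowest median among the genes, 53.4.

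**Figure D2:**
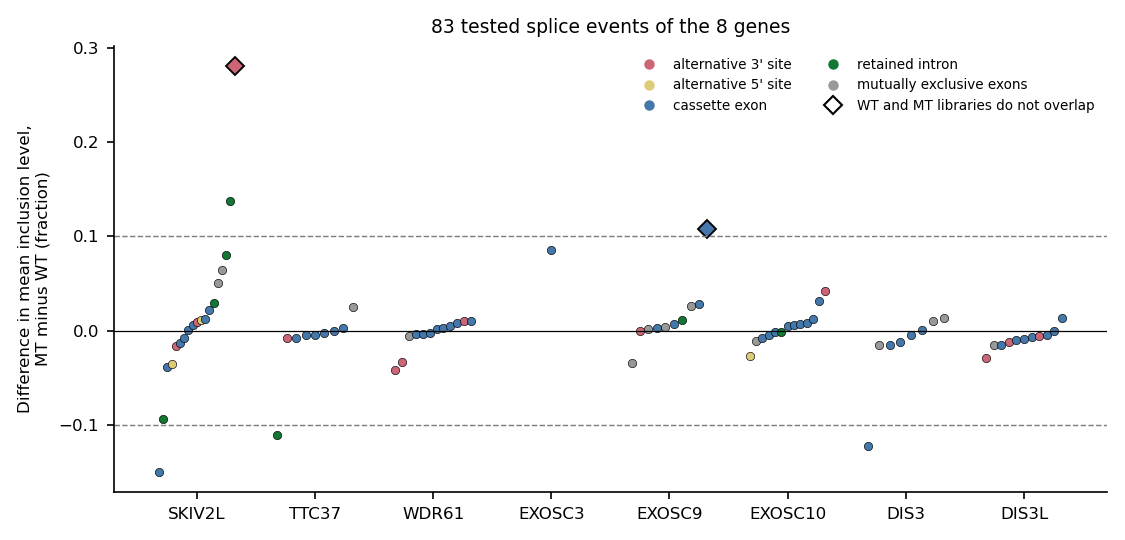
Difference in mean inclusion level (MT minus WT, fraction, y axis) of the 83 tested events, by gene and coloured by event type; dashed lines mark differences of 0.1 and −0.1, and diamonds mark events whose WT and MT libraries do not overlap. The 2 diamonds are the SKIV2L site at 0.281 and the EXOSC9 exon at 0.108, and most points lie close to 0. Diamonds make up 2.41% of the 83 events, beside 5.46% of all events tested that were apart at any size of difference.

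Within SKIV2L, 19 of 21 events were tested, 12 higher and 7 lower in MT, with a median absolute difference of 0.029. Next to the alternative 3′ splice site, 3 further events were singled out after their values were seen, since WT and MT did not overlap in any of them when MT 1 was left out. Exon 8, of 191 bp, is a coding exon that all WT libraries included nearly always, at levels of 0.988, 0.915 and 0.906. In MT the levels were 0.931, 0.791 and 0.636, a difference of −0.150 (SE 0.089; limma with Benjamini-Hochberg adjustment, adjusted p = 0.843). MT 1 lay within the WT range, and MT 2 and MT 3 lay below it.

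The 186-bp intron between exons 12 and 13 was retained at 0.039, 0.070 and 0.069 in WT and at 0.057, 0.200 and 0.161 in MT. The 94-bp intron between exons 27 and 28 was retained at 0.260, 0.436 and 0.520 in WT and at 0.375, 0.619 and 0.636 in MT. In both introns MT 1 lay within the range of WT while MT 2 and MT 3 lay above all WT libraries. The overlap of MT 1 with WT in these 3 events follows from how they were chosen. The differences were 0.080 (SE 0.044) and 0.138 (SE 0.114), each with an adjusted p of 0.856 (limma, Benjamini-Hochberg). Without MT 1, the differences of these 3 events were −0.223, 0.121 and 0.222, and WT and MT did not overlap, so that 5 events of the 8 genes were then apart by more than 0.1, 6.49% of the 77 tested. Over all events the share without MT 1 was 4.49%, against 1.73% with all 6 libraries, so the share was higher over all events as well. Without MT 3 the count was also 5, 6.49% of 77, beside 3.49% over all events. MT 1 was the lowest MT library at the alternative 3′ splice site. At the mutually exclusive exon events of SKIV2L it was instead the highest MT library, at 0.661 and 0.524.

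**Figure D3:**
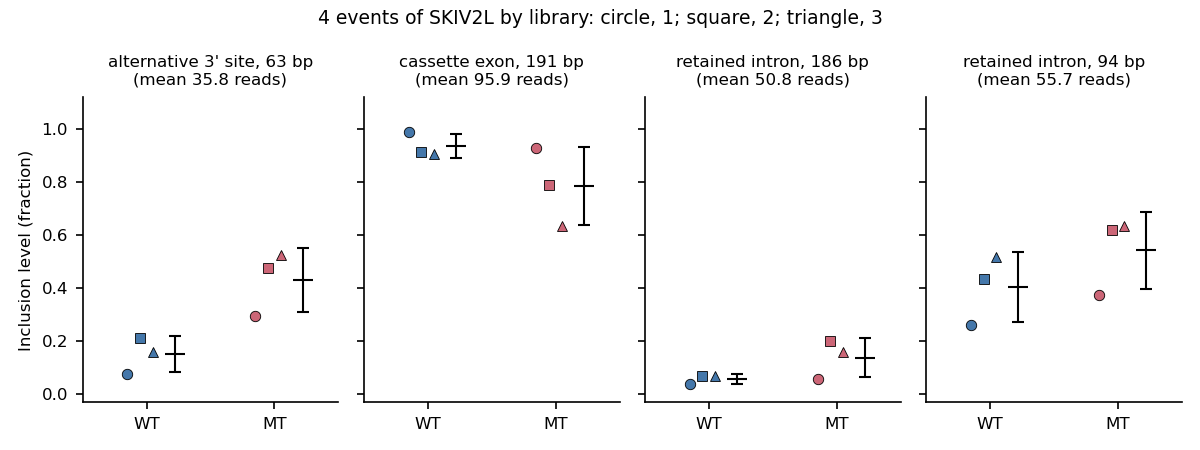
Inclusion level (fraction, y axis) of 4 SKIV2L events in each WT and MT library of HEK293T; symbols mark libraries 1 to 3, the horizontal mark is the mean and the bar its SD (n = 3). From left to right these are the 63-bp alternative 3′ site, exon 8, and the introns of 186 and 94 bp. MT 1 (circle) is the MT library nearest to WT in all 4. It is within the WT range in the 3 on the right, which were chosen because WT and MT separate without it.

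The other events of SKIV2L included exon 7 against exon 9 as mutually exclusive exons, with levels of 0.448, 0.463 and 0.624 in WT against 0.661, 0.517 and 0.511 in MT, whose ranges overlapped. Of 27 annotated transcripts, 0 carry either form. As cassette exons, exon 7 had levels between 0.963 and 1.000 and exon 9 between 0.882 and 1.000. The mutually exclusive levels thus do not show how often each exon was used. The intron of 452 bp that ends just before exon 9 and contains exon 8 had levels of 0.882, 0.697 and 0.4 in WT against 0.750, 0.462 and 0.484 in MT. Its junction reads for the form without the intron are those for skipping of exon 8, so these 2 events are not separate measurements. That shared junction had few reads, with a mean of 4.0 in WT against 7.0 in MT.

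The other Ski subunits showed smaller differences. For TTC37, 9 of 13 events were tested, from −0.111 to 0.025. The largest was a retention event of 329 bp with a mean of 13.5 reads, at a level of 1.000 in the 3 WT libraries and in MT 1 and MT 2 and of 0.667 in MT 3, so that it rests on 1 library. These 329 bp contain exon 23, whose cassette event had 200.5 reads and levels between 0.975 and 1.000. In both events the skipping form had a mean of 0.0 reads in WT and 0.3 in MT. The level of 1.000 thus does not show that an intron was fully retained. An alternative 3′ splice site of TTC37, 19 bp apart, had levels of 0.977, 0.994 and 0.95 in WT against 0.972, 0.974 and 0.95 in MT, which overlapped. For WDR61, 12 of 17 events were tested, from −0.042 to 0.010. The largest was an alternative 3′ splice site 97 bp apart with 19.8 reads, at 1.000 in all libraries but MT 1, where it was 0.875. The form without the 97 bp had a mean of 0.0 reads in WT and 0.3 in MT, and 0 annotated transcripts carry either form. The same 97 bp in another event, looked up after the values were seen, had 182.8 reads. There the levels were 0.056, 0.041 and 0.073 in WT against 0.093, 0.052 and 0.054 in MT, which overlapped. Another WDR61 site 385 bp apart was used at 0.096, 0.052 and 0.095 in WT against 0.068, 0.031 and 0.046 in MT, with overlapping ranges.

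For EXOSC3, the exosome cap subunit, the only event was its 152-bp exon 3, a coding exon of the MANE transcript. Its level was 0.888, 0.932 and 0.743 in WT against 0.969, 0.949 and 0.902 in MT. MT 3 lay within the WT range, and WT 3 stood below the other libraries. The difference was 0.086 (SE 0.060), with an adjusted p of 0.856 (limma, Benjamini-Hochberg). Among the other 9 tested events of EXOSC9, of the exosome barrel, the differences ranged from −0.034 to 0.028.

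Among the nucleases, EXOSC10 had 13 tested events with differences from −0.027 to 0.042. The largest was at a pair of 3′ splice sites only 15 bp apart (chr1:11070974-11070988, minus strand), where the upstream site is used in 1 annotated transcript and the downstream site in 3. Both sites are shown with the AG in capitals, since this is the alternative 3′ splice site with the second largest positive difference in the 8 genes.
EXOSC10 upstream 3′ site (chr1:11070983-11071012, minus strand): ggattcaccaactccagagacaAGttctct
EXOSC10 downstream 3′ site (chr1:11070968-11070997, minus strand): agagacaagttctctcccttgcAGctgccc
The upstream level was 0.064, 0.095 and 0.072 in WT against 0.106, 0.171 and 0.081 in MT. MT 3 lay within the WT range and the other MT libraries above it, and the difference was 0.042 (SE 0.028; limma with Benjamini-Hochberg adjustment, adjusted p = 0.856). Before the upstream AG there were 10 pyrimidines and 8 adenines in 20 bases, and before the downstream AG 13 pyrimidines and 4 adenines.

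DIS3 had 8 tested events, from −0.122 to 0.013. The largest was a 68-bp exon (chr13:72781289-72781356) measured against one pair of flanking exons, at 0.940, 0.924 and 0.839 in WT against 0.680, 0.818 and 0.839 in MT, where WT 3 and MT 3 had the same level. Its SE was 0.059 and its adjusted p 0.856 (limma, Benjamini-Hochberg), on a mean of 27.3 reads. The form without the exon had a mean of only 1.7 reads in WT and 2.2 in MT, and 0 annotated transcripts carry that form. The same exon measured against another pair of exons, an event looked up after the values were seen, had 139.9 reads and levels of 0.054, 0.108 and 0.059 in WT against 0.087, 0.080 and 0.038 in MT, which overlapped. DIS3L, the cytoplasmic nuclease, had 11 tested events, of which 1 was higher and 9 lower in MT, all within −0.029 and 0.013. The largest was an alternative 3′ splice site 135 bp apart, at 0.920, 1.000 and 0.824 in WT against 0.826, 1.000 and 0.831 in MT. The ranges overlapped, and the sign of the difference turned when WT 2 or MT 1 was left out. The MANE transcript carries neither form, and the downstream form had a mean of 3.0 reads in WT and 3.5 in MT. Against the site of the MANE transcript, 62 bp downstream, the same upstream site had levels of only 0.013 to 0.077 over all libraries. That event was looked up after the values were seen.

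Of the 12 alternative 3′ splice site events in the 8 genes, all tested, only the 63-bp event of SKIV2L had WT and MT apart. The other 11 ranged from −0.042 to 0.042, and their sites lay between 15 and 506 bp apart. Among all events tested, of any type, 5.46% were apart at any size of difference. With only 12 events the count is too small to set against that share, which was not computed for alternative 3′ splice site events alone. In all 12 both sites ended in AG, as did 98.7% of the upstream and 99.5% of the downstream sites over all events of this type that were tested.

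The 5 alternative 3′ splice site events of other genes most like that of SKIV2L, by root mean square distance over the 6 libraries among 5348 candidates, were those of DHX35 (0.079), TMEM218 (0.092), CAMTA2 (0.092), TBC1D16 (0.093) and ARL6IP4 (0.097). Their levels lay between 0.077 and 0.237 in WT and between 0.316 and 0.563 in MT. The difference was largest in TMEM218, at 0.345, and smallest in ARL6IP4, at 0.151. None of the 5 was called by limma. Because these events were chosen for their levels, they are a description only.

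The rest of the pathway was read from 3 lists. None of 189 tested events in 20 genes was called by limma, and 2 had an unadjusted p under 0.05. Their median absolute difference was 0.008. The other exosome subunits had 41 tested events with differences from −0.064 to 0.044, and in 0 of them were WT and MT apart. At any size of difference, 5.46% of all events tested were apart, a share that neither of the next lists exceeded. The nuclear cofactors had 80 tested events, 3 of them apart: PAPD5, a noncanonical poly(A) polymerase, at −0.092, its relative PAPD7 at −0.073, and ZFC3H1, a zinc finger protein that links polyadenylated nuclear RNA to the exosome, at 0.060. The cytoplasmic partners and related exonucleases had 68 tested events, 3 of them apart: the exonuclease DIS3L2 at −0.101, the exonuclease XRN1 at 0.017 and HBS1L, a ribosome rescue factor, at 0.013.

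The DIS3L2 event was the one event in these lists that was apart by more than 0.1. It is a pair of mutually exclusive exons, at 0.657, 0.5 and 0.514 in WT against 0.480, 0.435 and 0.452 in MT. The gap between the lowest WT and the highest MT library was smaller than the spread within WT (limma with Benjamini-Hochberg adjustment, adjusted p = 0.856).

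DRIP-seq, which maps RNA:DNA hybrids with the S9.6 antibody, gave another readout of the same 8 genes in Nalm-6. It measures another cell line, so it was not set against the splice levels. Over the gene bodies, untreated WT libraries held 12 and 12 peaks and untreated MT libraries 23 and 27, a log2 ratio of 1.06. Untreated peaks of the whole genome had a log2 ratio of 1.11. After treatment with RNase H, an enzyme that degrades the RNA of the hybrids, WT libraries held 2 and 4 and MT libraries 18 and 17. Genome-wide totals after treatment were 34952 (WT 1), 77550 (WT 2), 201804 (MT 1) and 198837 (MT 2), so MT was higher there too. The 8 genes made up 0.00572% (WT 1), 0.00516% (WT 2), 0.00892% (MT 1) and 0.00855% (MT 2) of these totals. Many peaks were thus still called in treated MT libraries, and how fully the treatment removed the hybrids was not tested. Untreated peaks without overlap with the peaks of the treated library of their genotype and number were counted as bona fide R-loop peaks. WT libraries had 10 and 8 and MT libraries 10 and 12, a log2 ratio of 0.29 (SD 0.29), beside 0.56 for the whole genome. The genotypes touched in this count. With 2 libraries per genotype an exact permutation test cannot give a p under 0.05, and none was made.

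TTC37, the longest of the 8 genes, held more bona fide peaks than any other of them in each library. It had 6 of 10 in WT 1, 5 of 8 in WT 2, 5 of 10 in MT 1 and 5 of 12 in MT 2. SKIV2L held 1 bona fide peak in WT 1 and 1 in MT 1 and none in the other untreated libraries. No peak of any library lay over the 63-bp segment of SKIV2L or the 51-bp exon of EXOSC9. Peaks over the segments of the 103 events were found for 10, in EXOSC3, EXOSC9, SKIV2L and TTC37. Where no peak is listed, the signal is only known to have stayed below the peak caller's threshold.

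**Figure D4:**
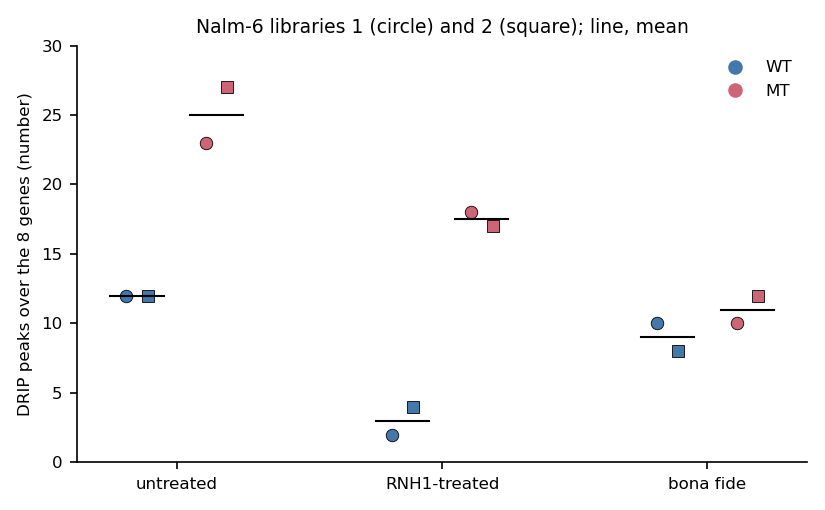
Number of DRIP peaks over the 8 genes (y axis) in each Nalm-6 library, for untreated libraries, RNH1-treated libraries and bona fide peaks; circles are libraries 1, squares libraries 2, lines the mean of 2 libraries. Untreated MT libraries (23 and 27) lie above untreated WT libraries (12 and 12), at a log2 ratio of 1.06 beside 1.11 for the whole genome, and bona fide counts lie between 8 and 12 in both genotypes.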

How the data were processed

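The authors aligned RNA-Seq reads with STAR, per the labels, and DRIP-seq reads with BWA to GRCh38, and called DRIP peaks with MACS2. The inclusion level deposited by the authors is a fraction, computed from junction reads as in the rMATS model. The authors' mean junction reads per group were deposited as group means only. Peak lists deposited by the authors give fold enrichment, a ratio over local background, and the −log10 p and score columns that the authors deposited with them entered no result. Columns of the authors' own comparison, p-values among them, were not used, nor were 6 list columns of per-library values, in which 3 MT values have no column of their own.

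limma 3.58.1 (R 4.3.3) compared the levels after an arcsine square root transform, with a variance trend on log mean reads, over all events with 6 levels that vary and at least 10 reads. The Benjamini-Hochberg adjustment ran over all of these. The SE given beside a difference was computed from the variances of the untransformed levels within each genotype. It is not an output of limma, whose p-values use the transformed levels and moderated variances. The rMATS test was replaced because the tool was not installed and the MT counts could not be matched to samples. The fit was tested on simulated data. Events were placed on GENCODE 44 (GRCh38) with Python 3.11.15 and pysam 0.24.0, where all 8 gene identifiers matched. Events were named if called, if WT and MT did not overlap with a difference of at least 0.05, or if largest in their gene. In the lists, the 3 largest that did not overlap were named. Members and lists were chosen with earlier results of these data known. Alternatives covered the logit transform (0.01 to 0.99), the trend, read minimums and single libraries. Read totals per library are not used here, so the depth is given as mean junction reads. The sequence of 1 splice site is not reported here.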

Additional observations from a re-analysis of the deposited data

How the results depend on the processing

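The number of events called in the 8 genes stayed at 0 under all 12 alternatives, and in the 3 pathway lists under all 11. Over all events, calls numbered 26 and fell to 0 with a logit transform, 0 without the variance trend, 17 with the reads of WT alone, and 3 to 13 with 1 library left out. The cause was not tested. Unadjusted p under 0.05 by limma was found in 2 to 6 events of the 8 genes across the alternatives. The SKIV2L difference lay between 0.236 and 0.350, with adjusted p from 0.609 to 0.894 (limma, Benjamini-Hochberg), and the EXOSC9 difference between 0.100 and 0.118, with adjusted p from 0.219 to 0.894. Events apart by more than 0.1 numbered 2, and 1 (without MT 2, where EXOSC9 was at 0.100) to 5 (without MT 1 or without MT 3) with 1 library left out; without WT 3 there were 4. These are 1.23% to 6.49% of the tested events of the 8 genes, beside 3.06% to 4.49% of all events under the same omissions and 1.73% with all libraries. The DIS3L difference of −0.029 turned to 0.014 without WT 2 and 0.001 without MT 1, and reached −0.086 without MT 2. The other named differences in the 8 genes kept their sign wherever the event was tested. The TTC37 event without MT 3 and the WDR61 event without MT 1 had the same level in all remaining libraries and dropped out. Both also dropped out at a minimum of 20 reads. The log2 ratio of DRIP peaks moved to 1.06 without subtraction of RNH1-treated peaks, beside 1.11 for the whole genome, and to 0.00 at a fold enrichment of at least 4, with 6 and 3 peaks left for WT and 3 and 6 for MT, and lay between 0.14 and 0.46 with 1 library left out. No paired analysis was possible because the numbers of the MT columns could not be matched to the numbered MT samples. The smallest difference that could be called at a given number of reads was not determined.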
